A study of Mus musculus with 15 samples.

Results

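The killer lectin receptor family was taken as every entry of the gene tables whose symbol begins with Klr, followed by a letter from a to k and a digit. It comprised 36 of the 24690 entries, with 20 *Klra*, 6 *Klrb1*, 3 *Klrc* and 7 other members (*Klrg1*, *Klrg2*, *Klrk1*, *Klrd1*, *Klre1*, *Klri1* and *Klri2*), and no entry joined a member to another gene. RNA was sequenced from ILC2s of the intestinal lamina propria (LP), with 4 WT and 3 Tgfbr2-/- libraries, and from ILC2 precursors (ILC2p) of the bone marrow (BM), with 4 libraries of each genotype, each cell type in 2 experiments. All donor mice were Tgfbr2f/fER-Cre+ animals of 8 to 12 weeks on the C57BL/6 background. Mice of the Tgfbr2-/- groups received 1 mg tamoxifen per day for 5 days, and those called WT here received oil, so that both carried the floxed alleles and the Cre. The Cre of this line acts in all cells rather than in ILC2s alone. From the LP, cells were taken 1 day after treatment ended and sorted as CD45+Lin-CD127+Sca-1+CD25+KLRG1+ ILC2s. ILC2p were sorted as CD45.2+Lin-CD127+α4β7+CD25+ cells from chimeras, in which irradiated CD45.1 hosts had received donor BM together with CD45.1 BM 6 weeks earlier. The KLRG1 protein was thus part of the gate for LP ILC2s and not of the gate for ILC2p. No label says whether the libraries of a group came from separate mice, so p-values measure the spread between these libraries, which may be technical.

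Killer lectin receptors are paired, lectin-like transmembrane proteins that NK cells and some other lymphocytes use to read surface proteins of neighbouring cells. Inhibitory members carry an immunoreceptor tyrosine-based inhibitory motif (ITIM) in the tail that recruits phosphatases such as SHP-1. Activating members mostly lack it and signal through the adaptors DAP12, DAP10 or the Fc receptor γ chain. The Ly49 receptors (*Klra*) bind MHC class I, the NKR-P1 receptors (*Klrb1*) bind Clr proteins encoded by *Clec2* genes, CD94 and NKG2 dimers (*Klrd1* with *Klrc*) bind Qa-1, NKG2D (*Klrk1*) binds stress-induced ligands, and KLRG1 binds cadherins. In mice most of the genes lie together in the NK gene complex, and KLRG1 is widely used as a surface marker of mature ILC2s.

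Of the 36 members, 28 had a position in the annotation of NCBIM37 (mm9), all on chromosome 6. All but *Klrg1* (chr6:122220614-122232900, minus strand) and *Klrg2* (chr6:38576660-38587239, minus strand) lay within chr6:128559245-131197380. The ITIM was searched in the first 40 codons, on the coding strand, of the 27 members with a coding sequence in GENCODE M1. It was found in 14 of these 27 members, and in 5.55% of all 21819 genes searched in the same way. The coding starts below are those of the members on which the results turn, given 5′ to 3′ from the start codon with the ITIM codons in capitals, so that inhibitory and activating partners of a pair can be compared. They run for 60 bases, and for 120 bases in *Klri1*, whose motif lies further in.
Klrg1: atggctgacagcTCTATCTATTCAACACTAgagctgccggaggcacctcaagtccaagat
Klrb1b: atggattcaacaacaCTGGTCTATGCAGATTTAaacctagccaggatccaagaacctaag
Klrb1f: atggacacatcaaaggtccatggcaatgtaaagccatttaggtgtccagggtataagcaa
Klrc1: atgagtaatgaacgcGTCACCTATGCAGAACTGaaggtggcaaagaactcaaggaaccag
Klrc2: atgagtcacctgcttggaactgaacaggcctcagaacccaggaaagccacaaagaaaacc
Klri2: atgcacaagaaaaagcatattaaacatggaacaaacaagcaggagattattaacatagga
Klri1: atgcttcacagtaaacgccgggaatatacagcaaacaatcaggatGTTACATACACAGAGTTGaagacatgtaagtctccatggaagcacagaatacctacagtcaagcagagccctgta

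The motif of *Klrg1* was in exon 1 at codons 5 to 10 (chr6:122232800-122232817, minus strand), and that of *Klrb1b*, the inhibitory NKR-P1B, was in exon 1 at codons 6 to 11 (chr6:128776232-128776249, minus strand). *Klrc1*, which encodes the inhibitory NKG2A, had it in exon 1 at codons 6 to 11 (chr6:129628896-129628913, minus strand), whereas *Klrc2* and *Klrc3*, which encode NKG2C and NKG2E, did not. *Klri1* had it in exon 1 at codons 16 to 21 (chr6:129667078-129667095, minus strand), and its activating neighbour *Klri2* did not. It was also absent from this window in *Klrb1f*, *Klrb1a*, *Klrk1*, *Klrd1* and *Klre1*. *Klrb1c*, which encodes the activating NK1.1, had it in 2 of 4 annotated transcripts but not in the longest coding sequence. It is thus not among the 14 members counted, and the motif alone does not tell inhibitory from activating members.

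Some members share sequence, and reads with several hits were kept by the authors. Of the 50-base windows of the longest transcript, 40.3% in *Klrc1*, 32.2% in *Klrc2* and 45.0% in *Klrc3* also occurred in a transcript of another gene. The counts of these 3 genes are thus uncertain among themselves. The *Klrc2* transcript searched had 2811 bases, but the RPKM of *Klrc2* rest on 646 to 717 bases, so its share over the counted bases may differ. The share was 11.0% in *Klrb1a*, 6.1% in *Klrb1b*, 5.7% in *Klrb1c* and 5.8% in *Klri1*. Among the *Klra* genes it reached 67.5% in *Klra3*, which had no count in any library. No window was shared in *Klrg1*, *Klrk1*, *Klrd1*, *Klre1* or *Klrb1f*.

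Library depth, as the sum of gene counts, spanned 12997489 to 22350339 for WT ILC2s (median 18403655) and 12167066 to 32114265 for Tgfbr2-/- ILC2s (median 29340187). It spanned 12276824 to 35961215 for WT ILC2p (median 24959424) and 10957021 to 31993992 for Tgfbr2-/- ILC2p (median 18070550). Levels are given as CPM (counts scaled to a common library total with TMM factors), or as the deposited RPKM, which is per transcript length, where genes are compared. In ILC2p libraries many genes were present in some libraries and nearly absent in others: of the genes with a mean over 50 CPM in their cell type, 1.36% to 14.7% were under 1 CPM in a given ILC2p library (median 6.75%), against at most 0.03% in any LP library. All 12 ILC2 marker genes on the list used here had counts in each LP library, with *Gata3* the most abundant, and up to 3 of the 12 were at 0 in an ILC2p library. *Tgfbr2* itself was at 172, 262, 147 and 206 CPM in WT ILC2s and at 206, 184 and 96.1 CPM in Tgfbr2-/- ILC2s. Its log2 change was -0.46 (SE 0.24, edgeR adjusted p = 0.898) in ILC2s and -0.21 (SE 1.21, adjusted p = 0.990) in ILC2p. These counts cover the whole transcript, including parts outside the floxed segment, and so do not check the deletion.

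Within the family, *Klrg1* was by far the most abundant transcript of LP ILC2s, followed by *Klrb1b* and *Klrk1*, while the Ly49 genes had almost no counts. Counts were found for 20 of the 36 members, and the other 16, all *Klra* genes, were at 0 in all 15 libraries. The 8 members without a position in the annotation were all among these 16. *Klra3*, *Klra10* and *Klra23*, also at 0, overlapped the annotated span of *Klra9*, and regions where genes overlap were left out of the counts. Whether these zeros reflect expression or the reference and the counting was not tested. Of the 4 *Klra* genes with counts, *Klra2*, which encodes Ly49B and is known from myeloid cells, was seen in 4 libraries, and *Klra17*, *Klra7* and *Klra5* in 1 library each. A gene at 0 could have held up to 3 counts, which is 0.0924 CPM in the deepest LP library and 0.311 CPM in the shallowest ILC2p library. This limit covers counting error only.

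**Figure D1:**
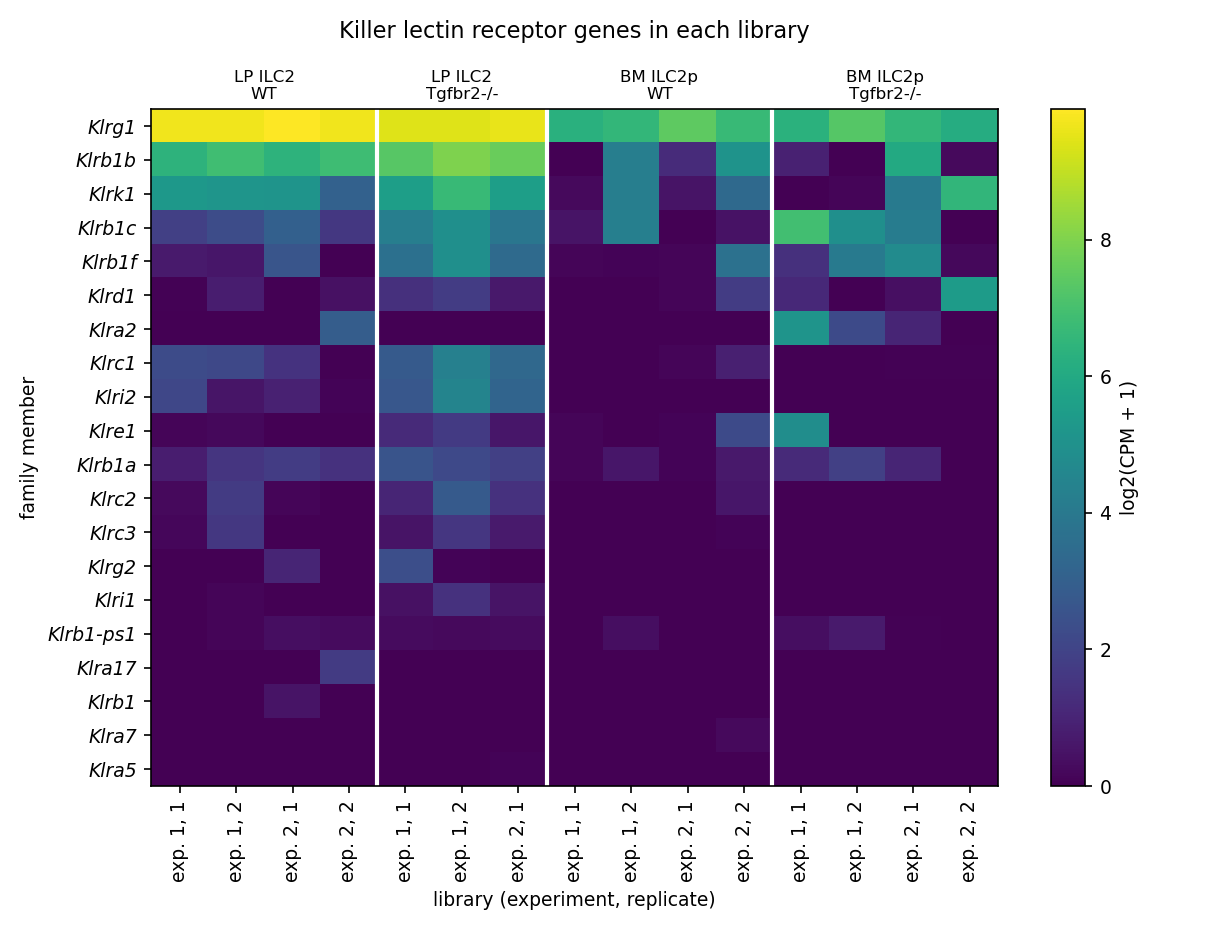
Level of each of the 20 family members with a count (rows, ordered by their mean) in each of the 15 libraries (columns, by group, experiment and replicate), as log2(CPM + 1) on a colour scale. *Klrg1* is bright in every library, *Klrb1b* and *Klrk1* are present in every LP library, and most rows are dark in ILC2p except in single libraries.

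In WT LP ILC2s, *Klrg1* had a median RPKM of 682.1 (range 611.3 to 830.2), *Klrb1b* of 49.4 (38.1 to 60.2) and *Klrk1* of 11.3 (2.72 to 12.1). The ranges of these genes did not overlap. The next in order were *Klrb1a* (median 1.67), *Klrc1* (1.43), *Klrb1c* (1.30) and *Klrb1f* (0.36), whose ranges all overlapped. In Tgfbr2-/- LP ILC2s the first genes kept their order, with medians of 568.5 for *Klrg1* (520.0 to 664.9), 104.6 for *Klrb1b* (82.1 to 121.4) and 16.7 for *Klrk1* (15.9 to 31.9). *Klrb1f* (7.84), *Klrb1c* (7.63) and *Klrc1* (5.37) came next with ranges that overlapped, and the highest library of *Klrb1f* (18.2) lay within the range of *Klrk1*. In ILC2p only *Klrg1* was high in every library, with medians of 88.2 RPKM in WT (54.1 to 143.5) and 62.4 in Tgfbr2-/- (43.3 to 109.6).

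*Klrg1* made up 89.0% to 92.4% of the summed RPKM of the family in WT LP ILC2s and 70.1% to 81.5% in Tgfbr2-/- LP ILC2s, and these ranges did not overlap. It made up 68.8% to 99.2% in WT ILC2p and 37.0% to 81.5% in Tgfbr2-/- ILC2p, which did overlap. Between 5 and 8 members were over 1 RPKM in a WT LP library, and between 10 and 13 in a Tgfbr2-/- LP library. The summed RPKM of the members other than *Klrg1* was 55.1, 79.0, 68.8 and 73.0 in the WT LP libraries and 132.1, 221.7 and 151.0 in the Tgfbr2-/- LP libraries. The *Klrb1* genes supplied most of that sum in every LP library.

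The first comparison asked how the family differed between Tgfbr2-/- and WT libraries of mature LP ILC2s. *Klrb1b*, the most abundant member after *Klrg1*, was about 2-fold higher in the Tgfbr2-/- libraries, and *Klrb1c*, *Klrb1f*, *Klrk1*, *Klrc1*, *Klri2* and *Klre1* were also higher in each of them than in the WT libraries of the same experiment, whereas *Klrg1* was slightly lower. With edgeR's quasi-likelihood test (adjusted p under 0.1 and a fold change over 1.5), however, 0 of the 11981 genes tested were called (0%), and thus none of the 12 members tested. At an unadjusted p under 0.05 were 557 genes (4.65%) and 4 of the 12 members (*Klrb1b*, *Klre1*, *Klrb1c* and *Klri2*). With DESeq2, 269 genes were called higher (2.25%) and 69 lower (0.576%), and 3 members, *Klrb1b*, *Klrb1c* and *Klrb1f*, were among the former.

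The WT libraries held 84.9, 115, 83.3 and 113 CPM of *Klrb1b*, the first pair from experiment 1 and the second from experiment 2. The Tgfbr2-/- libraries held 161 and 257 CPM in experiment 1 and 197 CPM in experiment 2. The groups did not overlap in either experiment. The means were 99.2 ± 17.5 (SD, n = 4) and 205.2 ± 48.6 CPM (SD, n = 3). The log2 change was 1.01 (SE 0.23, edgeR adjusted p = 0.877), and with DESeq2 it was also 1.01, with an adjusted p of 0.0215. Within experiment 1 it was 1.04 and within experiment 2 it was 1.03. Since the libraries are of bulk RNA, more cells with the transcript and more transcript per cell cannot be told apart here or in the results that follow.

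*Klrb1c*, whose product NK1.1 is activating and marks NK cells in this strain, measured 2.71, 3.94, 7.19 and 2.02 CPM in WT ILC2s. It measured 17.8, 29.3 and 13.9 CPM in the Tgfbr2-/- libraries, each above every WT library. The log2 change was 2.32 (SE 0.80, edgeR adjusted p = 0.898, DESeq2 adjusted p = 0.0740). *Klrb1f*, a *Klrb1* gene without an ITIM, was at 0.655, 0.529, 5.15 and 0 CPM in WT, compared with 11.7, 29.8 and 9.78 CPM in Tgfbr2-/- ILC2s, again without overlap. Its log2 change was 3.99 (SE 1.76, DESeq2 adjusted p = 0.0794). *Klrb1a* was low in both groups, at 0.748 to 2.38 CPM in WT, compared with 2.68 to 4.92 CPM in Tgfbr2-/- ILC2s. *Klrb1*, which encodes NKR-P1G, had counts in only 1 library, a WT one of experiment 2.

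Among the NKG2 genes, *Klrk1* was at 37.6, 35.0, 33.9 and 7.51 CPM in WT, compared with 46.3, 100.2 and 46.6 CPM in Tgfbr2-/- ILC2s. The groups did not overlap. Its log2 change was 1.04 (SE 0.52, edgeR adjusted p = 0.898). *Klrc1* was at 3.83, 3.41, 1.72 and 0 CPM in WT, compared with 6.08, 18.9 and 9.05 CPM in Tgfbr2-/- ILC2s. *Klrd1*, which encodes the CD94 partner of the NKG2 chains, reached no more than 0.721 CPM in WT, compared with 2.40 CPM in Tgfbr2-/- ILC2s. *Klrc2* and *Klrc3* overlapped between the groups, because WT replicate 2 of experiment 1 held 2.26 and 2.02 CPM of them.

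*Klri1* and *Klri2* encode the inhibitory and the activating partner of KLRE1, and all 3 genes were low. *Klri2* was at 3.37, 0.481, 0.886 and 0.0696 CPM in WT, compared with 5.37, 20.9 and 8.18 CPM in Tgfbr2-/- ILC2s, without overlap. Its log2 change was 3.26 (SE 1.23, edgeR adjusted p = 0.898). *Klre1* had 5 counts in the 4 WT libraries and 120 in the 3 Tgfbr2-/- libraries, a ratio of 23.2 with a 95% counting interval from 9.65 to 72.6, and its log2 change was 4.45 (SE 1.37, edgeR adjusted p = 0.898). *Klri1* had 2 counts against 70, a ratio of 33.8 (95% interval 9.01 to 284), and was too low to be tested. Without Tgfbr2-/- replicate 2 of experiment 1 this ratio was 14.1 (3.36 to 126). These intervals cover counting error and not the spread between libraries.

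*Klrg1* went the other way. It was at 836, 836, 962 and 835 CPM in WT, compared with 686, 678 and 771 CPM in Tgfbr2-/- ILC2s, so that the groups did not overlap. The log2 change was -0.30 (SE 0.13, edgeR adjusted p = 0.898, unadjusted p = 0.0566). The gate for KLRG1+ cells limits what this difference can show about the cells before the sort.

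**Figure D2:**
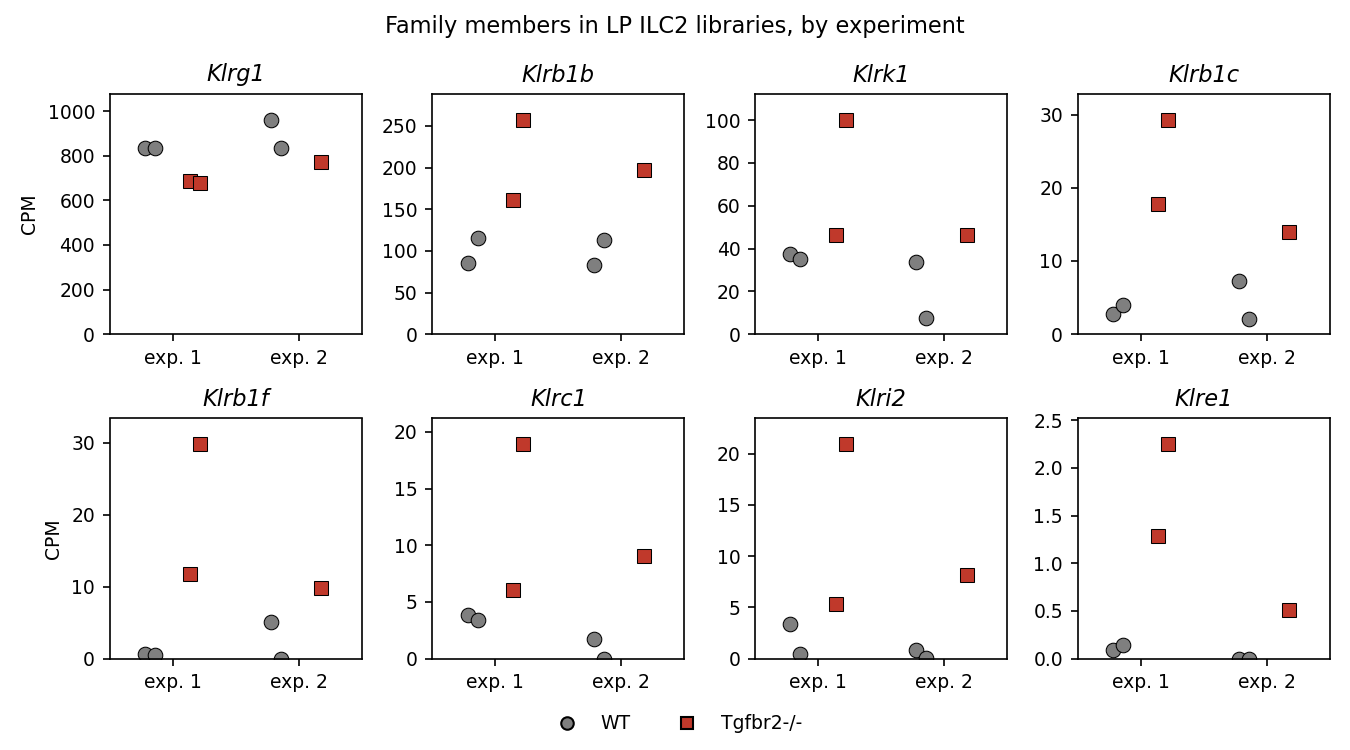
CPM (y axis, from 0, with a scale for each gene) of 8 family members in the 7 LP ILC2 libraries, by experiment (x axis). Grey circles are WT and red squares Tgfbr2-/- libraries, and in each experiment the squares lie above the circles for 7 of the genes and below them for *Klrg1*.

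Counted over all 36 members, 10 were higher in every Tgfbr2-/- LP library than in every WT library of the same experiment (*Klrb1a*, *Klrb1b*, *Klrb1c*, *Klrb1f*, *Klrc1*, *Klrk1*, *Klrd1*, *Klre1*, *Klri1* and *Klri2*), 1 was lower (*Klrg1*), and 25 were neither, 16 of them without a count. Of the 12 members tested, 9 were higher. Among all genes tested, 864 (7.21%) were higher in this sense and 643 (5.37%) lower. The median log2 change of the 12 members tested was 2.22, and that of all genes was -0.007. The filter on low counts let genes pass through the Tgfbr2-/- libraries alone, and only 3 members (*Klrg1*, *Klrb1b* and *Klrk1*) had over 100 counts in every LP library, so these counts are a description. The higher members included receptors with the ITIM (*Klrb1b*, *Klrc1*, *Klri1*) as well as receptors without it (*Klrb1f*, *Klrk1*, *Klri2*).

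The same library, Tgfbr2-/- replicate 2 of experiment 1, was the highest of all LP libraries for *Klrb1b*, *Klrb1c*, *Klrb1f*, *Klrc1*, *Klrc2*, *Klrk1*, *Klrd1*, *Klre1*, *Klri1* and *Klri2*. Without it the log2 changes were 0.828 for *Klrb1b*, 1.99 for *Klrb1c* and 2.93 for *Klri2*, all still positive. It was also the highest LP library for *Tbx21* (91.8 CPM), *Ncr1* (99.9 CPM) and *Xcl1* (40.5 CPM), which are genes of NK cells and ILC1s. *Tbx21*, which encodes T-bet, measured 2.01, 42.4, 13.7 and 0 CPM in WT ILC2s, compared with 44.3, 91.8 and 17.1 CPM in Tgfbr2-/- ILC2s. Of the 13 tested genes on the NK and ILC1 list, 12 had a log2 change above 0 (median 0.86), 5 were higher in every Tgfbr2-/- library of their experiment, and 0 were called by edgeR or by DESeq2, with 4 at an unadjusted p under 0.05. The summed level of the list was 1268, 1008, 634 and 818 CPM in WT, compared with 1165, 1918 and 1658 CPM in Tgfbr2-/- ILC2s, with *Il2rb* its most abundant gene in all but 1 library, where it was *Gzma*. *Eomes*, which defines conventional NK cells, was at 0 in all LP libraries, and *S1pr5* was at 0 in all but 1. The lineage antibodies that the methods name include CD11b, which many mature NK cells carry, and do not include NK1.1, but the methods give them as examples. The part of such cells in the changes of the family was not tested.

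Epithelial genes also differed between LP libraries. Their summed level was 14.5 and 16.1 CPM in WT, compared with 47.8 and 51.5 CPM in Tgfbr2-/- libraries of experiment 1, but 241 and 551 CPM in WT and 1456 CPM in the Tgfbr2-/- library of experiment 2, where *Krt8* reached 574.6 CPM. Of the 9 genes, 7 had a log2 change above 0 and 0 were called by edgeR, with 4 at an unadjusted p under 0.05 and 3 called higher by DESeq2. The log2 change of *Klrb1b* was 1.04 in experiment 1 and 1.03 in experiment 2, and the part of epithelial cells, which the CD45+CD127+ gate would remove, was not tested.

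In BM ILC2p the second comparison asked the same question in precursors that had developed from BM of tamoxifen-treated or oil-treated donors. Levels of members other than *Klrg1* differed widely between libraries of the same group, with *Klrb1c* over 10 CPM in 3 of 4 Tgfbr2-/- libraries and 1 of 4 WT libraries, and no member passed the test. Of the 9242 genes tested, 321 were called (3.47%), of which 241 were higher (2.61%), but 0 of the 6 members tested were. At an unadjusted p under 0.05 were 897 of the 9242 genes and 0 of the 6 members. DESeq2 called 1229 genes and 0 members. None of the 6 was higher in every Tgfbr2-/- library than in the WT libraries of the same experiment, a pattern shown by 744 genes (8.05%).

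*Klrg1* was at 76.4, 94.5, 174 and 103 CPM in WT, compared with 79.2, 155, 93.6 and 70.1 CPM in Tgfbr2-/- ILC2p, so that the groups overlapped. The log2 change was -0.17 (SE 0.63, edgeR adjusted p = 0.982). *Klrb1b* was at 0, 17.8, 1.33 and 32.7 CPM in WT, compared with 0.892, 0, 63.3 and 0.193 CPM in Tgfbr2-/- ILC2p. Its log2 change was -1.68 (SE 3.30, edgeR adjusted p = 0.953), an error too wide to give a direction. *Klrb1c* was at 0.446, 18.3, 0 and 0.412 CPM in WT, compared with 118, 29.3, 17.03 and 0 CPM in Tgfbr2-/- ILC2p. Its highest library was thus a Tgfbr2-/- one, yet another Tgfbr2-/- library had no count. The log2 change of *Klrb1c* was 4.12 (SE 2.47, edgeR adjusted p = 0.758) and that of *Klrb1f* 3.81 (SE 2.84, adjusted p = 0.853). *Klrd1* reached 42.6 CPM in Tgfbr2-/- replicate 2 of experiment 2 and *Klre1* reached 28.2 CPM in Tgfbr2-/- replicate 1 of experiment 1, while 3 of the 4 Tgfbr2-/- libraries had no *Klre1* count.

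**Figure D3:**
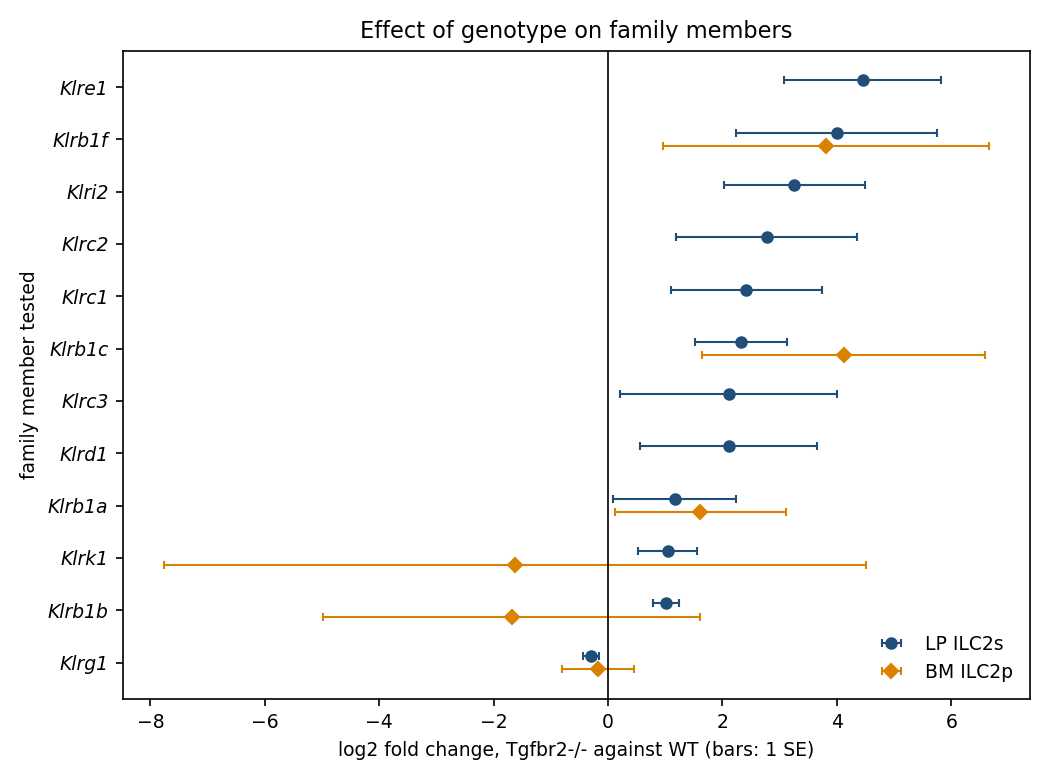
Log2 fold change of Tgfbr2-/- against WT (x axis) with bars of 1 SE for the members tested (y axis), in LP ILC2s (circles, 12 members) and in BM ILC2p (diamonds, 6 members). The bars are short for *Klrg1* and *Klrb1b* in LP ILC2s and cross 0 for *Klrg1*, *Klrb1b* and *Klrk1* in ILC2p.

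The Tgfbr2-/- ILC2p libraries differed from WT ILC2p in genes of other cells. *S100a8*, a neutrophil gene, was at 29562, 23770, 24049 and 25652 CPM in them, against 59.0, 60.4, 167 and 78.2 CPM in WT, and 11 of the 12 neutrophil and myeloid precursor genes tested were called higher. The summed level of that list was 78390 to 93580 CPM in Tgfbr2-/- and 930 to 1681 CPM in WT ILC2p, although Gr-1 and CD11b antibodies were in the lineage gate. Of 5 basophil and mast cell genes tested, 4 were called higher (*Prss34*, *Mcpt8*, *Fcer1a* and *Gata2*), and *Cpa3* was not (log2 -0.02, SE 0.49). Both counts stand beside 2.61% of all genes tested. *Mcpt8*, *Fcer1a* and *Gata2* reached no more than 1.87 CPM in WT ILC2p and could pass the filter through the Tgfbr2-/- libraries. The count of 4 is thus a description. *Gata3* and *Il1rl1* of the ILC2 list were called lower, with log2 changes of -1.41 (SE 0.31) and -1.96 (SE 0.22). *Klra2* had counts in 3 of the 4 Tgfbr2-/- ILC2p libraries, at 33.6, 3.73 and 1.02 CPM, and in no WT ILC2p library. The part of other cells in these values was not tested.

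The third comparison set the cell types side by side. *Klrg1* was 7.82-fold higher in WT LP ILC2s than in WT ILC2p (log2 2.97, SE 0.28, edgeR adjusted p = 0.000803), and it was the only one of 6 members tested to be called. *Klrg1* was part of the sort of the LP cells, and tissue, sort and mouse cannot be told apart from cell type here. Of the 10468 genes tested, 268 were called (2.56%) and 983 were at an unadjusted p under 0.05 (9.39%), as were 2 members. The second of these was *Klrb1a* (log2 2.39, SE 1.04, adjusted p = 0.513). *Klrb1b* was 7.71-fold higher in LP ILC2s, but with an SE of 1.35 on a log2 change of 2.95 (adjusted p = 0.548). All 4 WT LP libraries were above all WT ILC2p libraries, which themselves ranged from 0 to 32.7 CPM. *Klri2* had 99 counts in WT LP ILC2s and no count in WT ILC2p, at least an 8.01-fold difference against a floor of 3 counts per library. Without WT LP replicate 1 of experiment 1, which held most of these counts, the bound was 3.19-fold.

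In the Tgfbr2-/- libraries, 5 of 13 members tested were called higher in LP ILC2s, against 1047 of the 11469 genes tested called higher (9.13%) and 1575 called in either direction (13.7%). As in the genotype comparison, a member could pass the filter through the group where it was high, so the count of 5 is a description. *Klrg1* was 6.64-fold higher (log2 2.73, SE 0.38, edgeR adjusted p = 0.00672). The other 4 were *Klrc1*, *Klrc2*, *Klrc3* and *Klri2*, which were nearly absent from ILC2p. *Klrc1* had 928 counts in the 3 LP libraries and 2 in the 4 ILC2p libraries, a ratio of 415 (95% counting interval 115 to 3430, edgeR adjusted p = 0.0238). *Klri2* was at least 54.0-fold higher (959 counts against none, adjusted p = 0.0285), *Klrc2* at least 13.7-fold (251 against none, adjusted p = 0.0277) and *Klrc3* at least 4.76-fold (86 against none, adjusted p = 0.0269). The call of *Klrc3* was lost with DESeq2 (adjusted p = 0.262) and with no filter on low counts (edgeR adjusted p = 0.137), and the 3 *Klrc* genes share sequence. *Klri1*, too low to be tested, was at least 3.79-fold higher (70 counts against none). Tgfbr2-/- LP replicate 2 of experiment 1 held the most of these transcripts. Without it the ratio of *Klrc1* was 242, and the bounds were 31.8-fold for *Klri2*, 6.41-fold for *Klrc2*, 2.51-fold for *Klrc3* and 1.85-fold for *Klri1*. *Klrc1*, *Klrc2* and *Klri2* were still called by edgeR (adjusted p = 0.0522, 0.0522 and 0.0561), and *Klrc3* then was too low to be tested.

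*Klra2* pointed the other way, with 399 counts in the Tgfbr2-/- ILC2p libraries and none in the Tgfbr2-/- LP libraries, at least a 70.8-fold difference. Without Tgfbr2-/- ILC2p replicate 1 of experiment 1, which held most of these counts, the bound was 11.7-fold. *Klra2* was at an unadjusted p under 0.05, as were 6 of the 13 members and 2150 of all genes (18.7%), but was not called by edgeR (adjusted p = 0.145). It was called by DESeq2 (adjusted p = 0.00115), and by edgeR without Tgfbr2-/- ILC2p replicate 2 of experiment 2, the library of that group without a count (adjusted p = 0.0667). The difference of *Klrb1b* was 3.60 (log2, SE 2.01, adjusted p = 0.447). Without Tgfbr2-/- ILC2p replicate 1 of experiment 2, the 1 library of that group with over 1 CPM of it, *Klrb1b* was called higher in LP ILC2s (log2 9.05, adjusted p = 0.0244). Of 13 NK and ILC1 genes tested, 6 were called higher by edgeR in Tgfbr2-/- LP ILC2s than in Tgfbr2-/- ILC2p (*Tbx21*, *Gzma*, *Gzmb*, *Cd244*, *Il2rb* and *Txk*), beside the 9.13% of all genes. *Tbx21* was at 0 in 3 of these ILC2p libraries and at 0.0387 CPM in the other, and *Gzmb* and *Cd244* reached no more than 0.309 CPM. Such genes could pass the filter through the LP libraries, so the count of 6 is a description. *Ccl5* of the same list was lower (log2 -1.80, SE 0.60), called by DESeq2 but not by edgeR (adjusted p = 0.113). The median change of all genes was -0.265.

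Whether the effect of the genotype differed between LP ILC2s and ILC2p was tested over all 15 libraries. Of the 12806 genes tested, 127 were called (0.992%) and 1555 were at an unadjusted p under 0.05 (12.1%), against 0 and 2 of the 13 members. These were *Klrc2* (edgeR adjusted p = 0.390), which had no count in Tgfbr2-/- ILC2p, and *Klra2* (adjusted p = 0.400), which had none in Tgfbr2-/- LP ILC2s or WT ILC2p, so that the size of neither difference is given. The difference for *Klrg1* was -0.12 (SE 0.46, adjusted p = 1) and that for *Klrb1b* was 2.61 (SE 2.84, adjusted p = 0.861). The 2-fold increase of *Klrb1b* in LP ILC2s was therefore not shown to be absent from ILC2p. No SE could be fitted for *Klri2*, which had no count in any ILC2p library.

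Transcripts of the adaptors DAP12, DAP10 and the γ chain, through which activating receptors signal, were found in every LP library. *Tyrobp*, which encodes DAP12, was at 0.468, 0.385, 0.886 and 20.1 CPM in WT, compared with 14.3, 8.04 and 6.59 CPM in Tgfbr2-/- ILC2s. The Tgfbr2-/- libraries thus held more of it than 3 of the 4 WT libraries and less than the other WT library. *Hcst*, which encodes the DAP10 adaptor of NKG2D, was at 80.2 to 130.7 CPM in WT, compared with 88.6 to 142.3 CPM in Tgfbr2-/- ILC2s. *Fcer1g*, the γ chain used by NKR-P1 receptors, was at 36.9 to 95.1 CPM in WT, compared with 52.4 to 107.4 CPM in Tgfbr2-/- ILC2s. Of the 16 adaptors, kinases and phosphatases tested, 0 were called by either tool and 1 was at an unadjusted p under 0.05, namely *Ptpn6*, which encodes SHP-1 (log2 -0.52, SE 0.22, edgeR adjusted p = 0.898).

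In Tgfbr2-/- ILC2p, *Tyrobp* was at 805, 727, 641 and 794 CPM against 1.52, 4.53, 7.32 and 8.39 CPM in WT (log2 7.20, SE 0.59, edgeR adjusted p = 0.000232). *Fcer1g* was at 690, 806, 456 and 646 CPM against 80.8, 13.2, 35.1 and 16.2 CPM (log2 4.18, SE 0.61, adjusted p = 0.00677). Both adaptors are also abundant in neutrophils and basophils. In the same libraries 11 of 12 neutrophil and 4 of 5 basophil and mast cell genes tested were called higher, the latter count being a description. *Tyrobp* and *Fcer1g* were the 2 of 15 genes on the list of adaptors and phosphatases called by edgeR in ILC2p. DESeq2 also called *Syk* and *Ptpn6* higher and *Zap70*, *Lck* and *Ptpn11* lower. With edgeR, 4 of 7 other lectins of the NK gene complex tested were called higher there too, beside 2.61% of all genes. They were *Clec12a*, *Olr1*, *Clec4a2* and *Clec4e*, which are receptors of myeloid cells. The last 3 reached no more than 1.28 CPM in WT ILC2p and could pass the filter through the Tgfbr2-/- libraries, so the count is a description. *Klrb1c*, which signals through the γ chain, was at 118, 29.3, 17.03 and 0 CPM in these 4 Tgfbr2-/- libraries. *Klrk1* was at 0, 0.104, 15.8 and 92.2 CPM in them, compared with 0.178, 18.01, 0.424 and 9.53 CPM in WT ILC2p. The part of any cell type in these values was not tested.

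**Figure D4:**
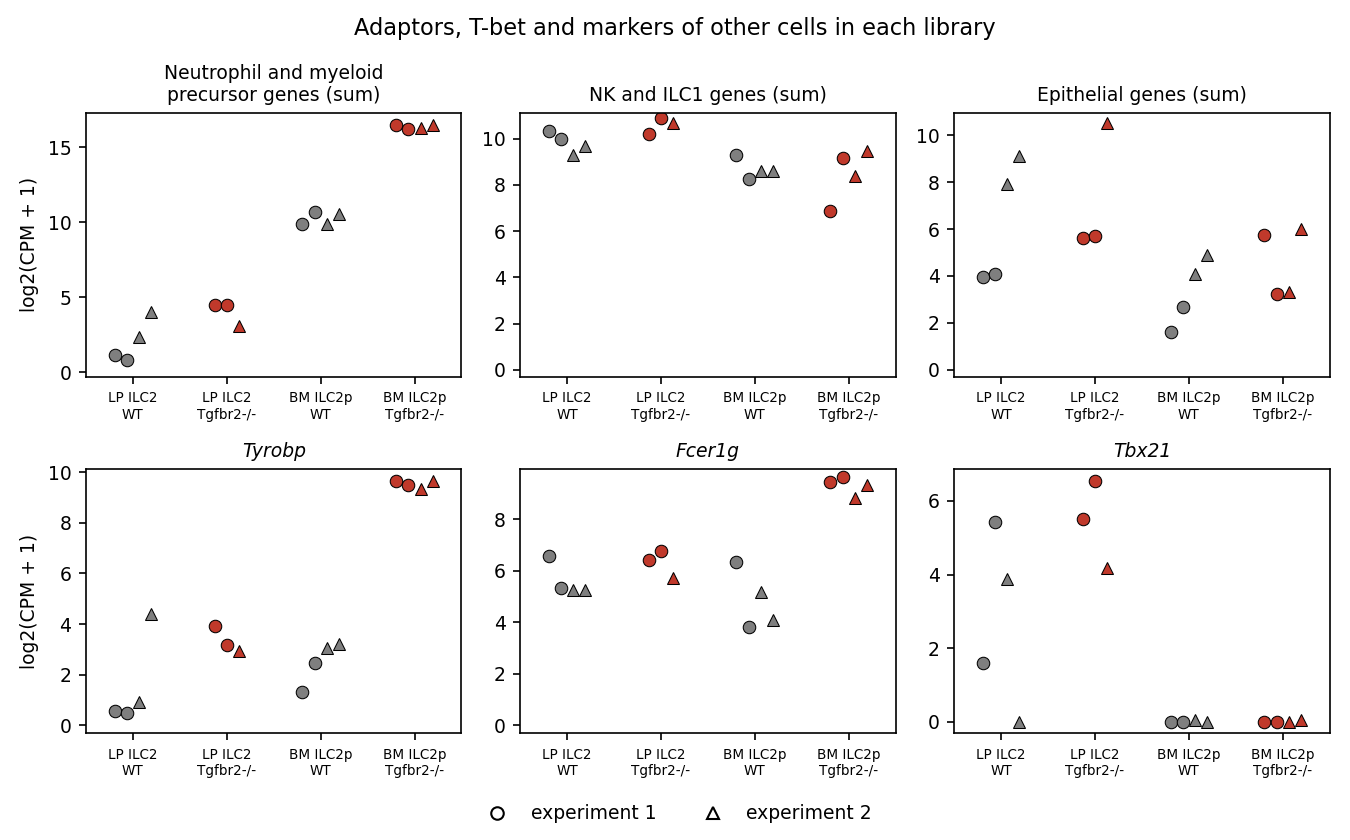
Summed level of 3 lists of marker genes and level of *Tyrobp*, *Fcer1g* and *Tbx21*, as log2(CPM + 1) (y axes), in each library by group (x axes), with WT in grey, Tgfbr2-/- in red, circles for experiment 1 and triangles for experiment 2. *Tyrobp* and *Fcer1g* stand out in the same 4 Tgfbr2-/- ILC2p libraries as the neutrophil genes, and *Tbx21* is near 0 in all ILC2p libraries.

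Ligands of the family were measured in the same cells. *H2-K1* and *H2-D1*, the MHC class I genes recognized by Ly49 receptors, had mean levels of 8753 and 3337 CPM in the LP libraries, and *H2-T23*, which encodes the Qa-1 ligand of CD94 and NKG2 dimers, had 610.8 CPM. Their log2 changes with genotype in LP ILC2s were 0.12 (SE 0.15), 0.14 (SE 0.16) and 0.33 (SE 0.16), and 0 of the 8 ligands tested were called or at an unadjusted p under 0.05. *Clec2i*, a Clr gene, was at 18.3 to 29.9 CPM in WT, compared with 22.4 to 29.1 CPM in Tgfbr2-/- ILC2s. In ILC2p 0 of 8 ligands were called by edgeR, with 1 at an unadjusted p under 0.05, *H2-K1* at a log2 change of -0.55 (SE 0.13, edgeR adjusted p = 0.0767), below the fold change required. DESeq2 called 1 ligand lower, *Clec2i*, which was at 0.535, 84.0, 65.8 and 72.8 CPM in WT, compared with 0.297, 0.311, 51.9 and 0.696 CPM in Tgfbr2-/- ILC2p (edgeR log2 -4.18, SE 2.58, adjusted p = 0.773). The difference between the changes of *H2-K1* in the 2 cell types was 0.68 (SE 0.16, adjusted p = 0.0952) and was called by edgeR, but neither by DESeq2 nor at an adjusted p under 0.05.

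Among 15 regulators tested in LP ILC2s, 0 were called and 3 were at an unadjusted p under 0.05, namely *Id2* at a log2 change of -0.45 (SE 0.15) and *Smad7* (-1.13, SE 0.36) and *Skil* (-0.90, SE 0.32), both known targets and inhibitors of TGF-β signalling. *Gata3*, the most abundant, was at -0.26 (SE 0.15). *Cd69*, a lectin gene next to the family, was at 894, 833, 996 and 698 CPM in WT, compared with 560, 593 and 584 CPM in Tgfbr2-/- ILC2s, without overlap (log2 -0.60, SE 0.17, edgeR adjusted p = 0.898), and was called lower by DESeq2. It was the one of 3 other lectins tested in LP ILC2s at an unadjusted p under 0.05. In ILC2p, *Id2* (-0.96, SE 0.20) and *Gata3* (-1.41, SE 0.31) were the 2 of 14 regulators called by edgeR, both lower in Tgfbr2-/- cells. DESeq2 also called *Smad7* (edgeR log2 -5.81, SE 1.59, adjusted p = 0.132) and *Ski* (edgeR log2 -5.40, SE 2.78, adjusted p = 0.667) lower.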

How the data were processed

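RNA-seq of sorted LP ILC2s and BM ILC2p was aligned by the authors with TopHat on mm9, and multiple hits were retained (the submitters' processing notes name Bowtie2), and counted on RefSeq genes over full transcripts. Per the file headers, regions where genes overlap were left out. Whether strand was used is not given in the sources used here. The authors deposited raw counts and RPKM for each library. The RPKM were used as deposited, for levels between genes. Groups and experiments were taken from the labels.

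The count test was that of edgeR 4.0.16, run under R 4.3.3 (TMM scaling, filterByExpr, quasi-likelihood test, experiment as a covariate within a cell type). Genes were called at a Benjamini-Hochberg adjusted p under 0.1 over all genes tested and a fold change over 1.5. The SE was the log2 change divided by the square root of F. DESeq2 1.42.0, other scalings, filters, thresholds and designs, and leaving out libraries were alternatives. The fits were tested on simulated data and recovered known changes at a low spread. At the real spread, in each comparison that involves ILC2p most of them were not called, and only their direction was required, a criterion set after a stricter one had failed. The lack of a call there therefore says little. Values are given for members at an unadjusted p under 0.05 and always for *Klrg1* and *Klrb1b*, and for called or abundant genes of 4 partner lists (adaptors and phosphatases, ligands, other lectins, regulators) and 9 lists of cell type markers. The other genes and members shown were chosen after their values were seen. The members and lists were chosen with earlier results of these data known. Sequences are from GENCODE M1. Python 3.11.15, pandas 2.3.3, numpy 2.4.6 and matplotlib 3.10.9 were used.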

Additional observations from a re-analysis of the deposited data

Results flagged for a closer look

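In groups of 4 libraries, a library was singled out where its gap to the nearest other library, as a share of the range of the group, was above Dixon's 95% critical value. This held for 18 of 33 groups of a family member tested, 8 in WT ILC2s and 10 in ILC2p. Chance flags about 1 in 20 groups of normally distributed values, which is no baseline for sparse counts: a group with 3 of its 4 libraries at 0 always meets the rule. Groups of 3 were not tested, which leaves out the Tgfbr2-/- ILC2s.

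In WT ILC2s, replicate 1 of experiment 2 was highest for *Klrg1* (962 CPM, next 836), *Klrb1f* (5.15 CPM) and *Klrg2* (1.05 CPM). Replicate 2 of experiment 2 was lowest for *Klrk1* (7.51 CPM, next 33.9) and highest for *Klra2* (6.61 CPM) and *Klra17* (2.30 CPM). Replicate 2 of experiment 1 was highest for *Klrc2* (2.26 CPM) and *Klrc3* (2.02 CPM). In WT ILC2p, replicate 2 of experiment 2 was highest for *Klrb1f* (11.9 CPM), *Klre1* (3.71 CPM), *Klrd1* (2.38 CPM), *Klrc1* (0.848 CPM) and *Klrc2* (0.533 CPM), and replicate 2 of experiment 1 for *Klrb1c* (18.3 CPM). In Tgfbr2-/- ILC2p, replicate 1 of experiment 1 was highest for *Klra2* (33.6 CPM, next 3.73) and *Klre1* (28.2 CPM), replicate 1 of experiment 2 for *Klrb1b* (63.3 CPM, next 0.892) and replicate 2 of experiment 2 for *Klrd1* (42.6 CPM).

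The effect of the genotype differed between LP ILC2s and ILC2p in the edgeR interaction test for no family member and for 8 genes of the other lists. The log2 difference, LP minus BM, was -3.70 for *Fcer1g*, 0.68 for *H2-K1*, -7.69 for *Gzma*, 5.35 for *Txk* and 1.33 for *Ltb*. Those of *H2-K1* and *Ltb* (edgeR adjusted p = 0.0952 each) were not called by DESeq2. The fitted values of -14.1 for *Ltf*, -10.8 for *Mmp8* and -7.93 for *Cxcr2* are not sizes of an effect, since *Ltf* and *Mmp8* were at 0 in all Tgfbr2-/- LP libraries, *Cxcr2* was at 0.421 CPM or less in every LP library, and all 3 reached the test through ILC2p. Likewise *Gzma* was at 0.198 CPM or less in WT ILC2p.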

How the results depend on the processing

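The number of family members called was the same in 88 of 89 alternatives across the 5 comparisons or within 1.5 times the main count, the exception being the 3 members that DESeq2 called in LP ILC2s. The changes of *Klrb1b*, *Klrb1c*, *Klre1*, *Klri2* and *Klrg1* in LP ILC2s kept their direction in every alternative that could be run. Leaving out the ILC2p libraries with over 5% of well expressed genes under 1 CPM kept 1 Tgfbr2-/- ILC2p library, replicate 1 of experiment 2. No conclusion is drawn from the counts of genes called without those libraries, since 1 library gives no spread within its group. Counts of all genes moved more than those of family members. In LP ILC2s they were 338 with DESeq2 and 3 with no filter on low counts. In ILC2p they were 1229 with DESeq2, 38 in experiment 1 alone, 77 in experiment 2 alone and 25 without the libraries in which over 5% of well expressed genes were under 1 CPM, an alternative chosen after seeing the data. Between WT cell types they were 604 with DESeq2 and 176 with no filter, and between Tgfbr2-/- cell types 4781 without those libraries. For the interaction they were 203 with upper quartile scaling, 196 with library size only, 1509 with DESeq2, 259 with no filter, 68 at an adjusted p under 0.05 and 1136 without those libraries.

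In ILC2p, *Klrb1b* turned to 0.26 with no experiment term, 0.87 in experiment 2 alone and 1.82 without the libraries over the 5% limit. *Klrg1* turned to 0.44 in experiment 1 alone. In the interaction, *Klrg1* turned to 0.24 (upper quartile), 0.17 (library size only) and 0.23 (without those libraries), and *Klrb1b* to -0.96 (without those libraries). The values without those libraries rest on 1 Tgfbr2-/- ILC2p library, at 63.3 CPM of *Klrb1b* (next 0.892). None of the changes in the other alternatives was called, and the cause was not tested.

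Leaving out each library in turn gave 0 to 0 genes called in LP ILC2s, 179 to 319 in ILC2p, 95 to 370 between WT cell types, 1095 to 2384 between Tgfbr2-/- cell types (4 to 7 members) and 14 to 407 for the interaction. In ILC2p the change of *Klrg1* ran from -0.51 to 0.11 and that of *Klrb1b* from -5.08 to 1.86, and in the interaction they ran from -0.40 to 0.22 and from -0.51 to 6.10. Leaving out Tgfbr2-/- ILC2p replicate 1 of experiment 2 gave 407 genes for the interaction and 2384 between Tgfbr2-/- cell types, and WT ILC2p replicate 1 of experiment 1 gave 309 for the interaction. The Tgfbr2-/- ILC2 library of experiment 2 left 14. Between WT cell types, each of the 4 WT ILC2 libraries left out brought the count to 95 to 117, and in ILC2p it fell to 179 without WT replicate 1 of experiment 2, to 185 without WT replicate 2 of either experiment and to 212 without Tgfbr2-/- replicate 1 of experiment 1. Between Tgfbr2-/- cell types, leaving out the libraries over the 5% limit kept 1 Tgfbr2-/- ILC2p library, replicate 1 of experiment 2. It held 63.3 CPM of *Klrb1b* (the next library of that group 0.892), and the log2 difference of *Klrb1b* was then 1.62.

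Same-numbered libraries did not deviate together in LP experiment 1 (correlation -0.046) or in ILC2p experiments 1 and 2 (-0.01 and -0.027). Experiment 2 of LP ILC2s, with 1 Tgfbr2-/- library, could not be checked. The numbers, which are those of the sample titles, were thus not shown to pair the libraries. The names of the deposited data number the Tgfbr2-/- ILC2 libraries of experiment 1 differently, and that numbering was not tested. With the replicate block the counts were 0 in LP ILC2s, 175 in ILC2p and 18 for the interaction, with 0 members called, and *Klrb1b* in LP ILC2s was at 1.07. The depths of the cell types overlapped, and 3 counts were at most 0.311 CPM. In ILC2p the missing genes, which include genes with a mean over 50 CPM, limit what can be said of any member. The ratios without each library of the higher group were added after seeing the data.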

Other observations

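The remaining lists of marker genes bear on what else the sorted cells held. In LP ILC2s, edgeR called 0 of 12 ILC2, 0 of 9 ILC3, 0 of 7 T cell, 0 of 5 B cell and 0 of 4 plasmacytoid dendritic cell genes tested between genotypes, with 2, 2, 2, 0 and 0 of them at an unadjusted p under 0.05. DESeq2 called 2 ILC2 genes and 1 T cell gene lower and none of the other 3 lists. The 1 neutrophil and the 1 basophil gene tested there were not called by either tool. In ILC2p, 0 of 4 ILC3, 0 of 1 T cell, 0 of 1 B cell, 0 of 4 plasmacytoid dendritic cell and 0 of 2 epithelial genes were called by edgeR, with 1, 0, 0, 1 and 0 at an unadjusted p under 0.05, and DESeq2 called 1 ILC3 gene and 1 plasmacytoid dendritic cell gene higher.

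Among the NK and ILC1 genes, *Gzma*, a granzyme, was the only one of 8 called by edgeR in ILC2p, at 34.3, 25.4, 26.8 and 41.7 CPM in Tgfbr2-/- libraries and no more than 0.198 CPM in any WT library (log2 8.66, edgeR adjusted p = 0.0568). *Ncr1*, which encodes NKp46, was at 78.3 and 136 CPM in one Tgfbr2-/- ILC2p library of each experiment and at no more than 4.76 CPM in the other 2. DESeq2 called *Gzma* and *Ncr1* higher and *Il2rb*, *Cd226* and *Txk* lower, with edgeR log2 changes of -3.31, -4.44 and -4.49 for the last 3 (adjusted p = 0.548, 0.439 and 0.176). The summed level of the list was 303 to 627 CPM in WT and 115.5 to 697 CPM in Tgfbr2-/- ILC2p, which overlapped.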
